A study of Arabidopsis thaliana with 9 samples.

Results

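The comparison described here sets shoot apical meristems of Arabidopsis thaliana after 3 long days (LD3) against meristems of plants still in short days (LD0). Its members are 6 of the 9 libraries of the series, chosen by their titles, 3 per group and lettered A, B and C. The 3 libraries taken after 1 long day entered the statistical model to share its estimate of spread, and so also bore on the filter and the preparation term; with only the 6 libraries of LD3 and LD0, 7743 loci were tested. All plants were of the Col-0 strain, and the labels name no mutation, transgene or chemical treatment for any group. LD3 plants had moved to days of 16 h light and 8 h dark, whereas LD0 plants had stayed in days of 8 h light and 16 h dark. Plant age is not given in the labels used here. Meristems were cut out by laser dissection, their RNA was amplified, and random primers were used for the cDNA. Libraries A and B of each group were shotgun libraries of the whole transcriptome and library C was a ready-to-run library. Nothing in the labels says whether A, B and C came from separate pools of plants, and p-values here speak only to how these libraries vary, which could be technical variation.

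The shoot apical meristem is the dome of dividing cells that makes all aerial organs. In long days the leaf-made protein FT moves to the meristem, joins the bZIP factor FD, and turns on flowering genes such as the MADS-box gene SOC1. The meristem then stops making leaf primordia and prepares to make flowers, with repressors such as SVP, FLC and the AP2-like factors acting against the change. The series follows this change and stops before floral meristems form.

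Depth differed widely between libraries. LD3 libraries held 102019 (A), 1298372 (B) and 11145220 (C) reads assigned to loci, and LD0 libraries held 108753, 97153 and 2187205. Levels are given as CPM, read counts scaled to a library of 1000000 reads after TMM normalisation. A locus with 0 reads could have up to 3, and 3 reads were worth 23.4, 2.08 and 0.337 CPM in LD3 A, B and C, against 26.9, 28.5 and 1.85 CPM in LD0 A, B and C. Such limits cover counting error only. For single loci, groups are called separated when their CPM values do not overlap, with 0 reads taken as 0 CPM. Where 3 values follow a group's name below, they are libraries A, B and C in that order. Meristem and epidermal identity could be checked: STM, CLV1, CLV3 and KNAT1 had reads in all 6 libraries, as did the epidermal factor ATML1 and the epidermal protein PDF1. WUS, also a meristem marker, had 0 reads in LD3 A and LD0 A. Among the 8 epidermal markers, FDH had 0 reads in LD0 B and CER1 had 0 in 2 libraries. Of 14 markers of trichomes and stomata, SPCH, MUTE and FAMA had 0 reads, and the list took 0.00178% to 0.00686% of reads in LD3 and 0% to 0.00283% in LD0. In the list of 12 vascular markers the xylem regulators VND6 and VND7 had 0 reads. Its share came to 0.000980%, 0.00216% and 0.000987% in LD3, below the 0.00368%, 0.0371% and 0.00297% in LD0, with most of the LD0 B value from the phloem sucrose transporter SUC2 (31 reads there), without which the groups overlapped. Leaf mesophyll markers took 0.0204% to 0.124% of LD3 reads and 0.0443% to 0.147% of LD0 reads; 9 of 10 tested were negative, with a median log2 fold change (LD3 over LD0) of -1.43, and the part of leaf RNA in the results was not tested.

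Of 23338 loci, 9300 passed the filter on low counts. No locus passed an adjusted p of 0.05 in edgeR's quasi-likelihood test with library preparation as a covariate, so percent called was 0.0. At an unadjusted p under 0.05 the same test placed 250 loci higher in LD3, 2.69% of those tested, and 487 lower, 5.24%. With the library letter as a replicate block, 2 loci passed: FTM1, higher in LD3 at an adjusted p of 0.0337, and AT1G68250, lower in LD3 at 0.00481. DESeq2 called 16 loci higher (0.172%) and 280 lower (3.01%), and limma-voom called 230 higher (2.47%) and 278 lower (2.99%), both at an adjusted p under 0.05. Both of these tools called 9 loci higher (0.0968%) and 114 lower (1.23%), which is 41.6% of the DESeq2 calls and 24.2% of the limma-voom calls. Without the deepest library, LD3 C, limma-voom called 0 loci, with 611 higher and 281 lower at an unadjusted p under 0.05, and DESeq2 called 24. All 3 LD3 libraries lay above all 3 LD0 libraries for 702 loci (7.55%) and below them for 482 (5.18%). In the authors' deposited table for the same contrast, 408 of 22281 loci were higher and 1265 lower at a p under 0.05, and 0 passed after adjustment of those p-values. Fold changes below are log2 values from edgeR, LD3 over LD0, with their standard errors (SE), and p without further note is edgeR's unadjusted p. Adjusted p from edgeR was 0.0540 for FTM1 and 0.205 or higher for every other named locus.

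**Figure D1:**
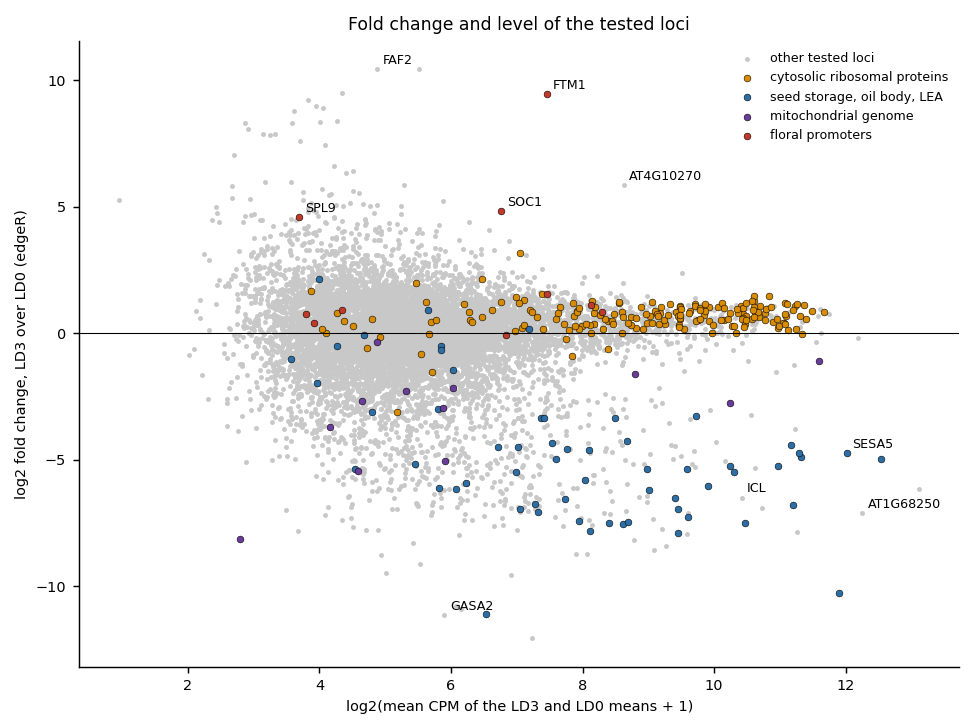
Log2 fold change (LD3 over LD0, edgeR) of the 9300 tested loci against their level, log2 of the mean CPM of the LD3 and LD0 means plus 1; colours mark 4 groups of loci. Cytosolic ribosomal protein loci (orange) form a band just above 0 at high level, and seed storage, oil body and late-embryogenesis (LEA) loci (blue) lie mostly between -3 and -8, while fitted values of loci with 0 reads in one group, such as FAF2 and GASA2, depend on the model's prior and are not estimates of size.

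The locus with the smallest p among those higher in LD3 was FTM1 (AT1G43800), which encodes a stearoyl-ACP desaturase of fatty acid metabolism and was named in the study of these meristems. It had 52, 327 and 3708 reads in LD3, against 0, 0 and 1 reads in LD0, which is 406, 227 and 417 CPM in LD3, against 0, 0 and 0.616 CPM in LD0. LD0 A and B held no FTM1 read at all and the groups stood far apart, with a log2 fold change of 9.45 (SE 1.19) and an adjusted p of 0.0540. AT4G10270, a gene of the wound-responsive family also known from low-oxygen responses, had 49, 455 and 14350 reads in LD3, against 5, 1 and 4 reads in LD0. Its lowest LD3 library was above its highest LD0 library by CPM (382, 315 and 1613 CPM in LD3, against 44.8, 9.50 and 2.47 CPM in LD0), with a log2 fold change of 5.86 (SE 1.35) and p under 0.05. FAF2, of a small plant family studied for effects on meristem size, had 6, 19 and 984 reads in LD3, against 0, 0 and 0 reads in LD0. With no read in any LD0 library, its mean CPM was at least 1.58 log2 units higher in LD3, taking 3 reads per LD0 library as the limit. LD3 B alone, at 13.2 CPM, lay under the 28.5 CPM that 3 reads are worth in LD0 B. CKL13, a casein kinase 1-like protein kinase, had 15.6, 10.4 and 79.1 CPM in LD3, against 0, 0 and 1.23 CPM in LD0, so that 2 of its LD0 libraries were at 0. Its LD3 A and B values lay under the 26.9 and 28.5 CPM that 3 reads are worth in LD0 A and B.

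Other loci with separated libraries and small p were single genes of various roles. TOC34, a receptor of the chloroplast protein import complex, had 109, 119.8 and 201 CPM in LD3, against 17.9, 19.0 and 26.5 CPM in LD0 (log2 fold change 2.76, SE 0.79, p under 0.05). LPLAT2, a lysophospholipid acyltransferase, had 15.6, 20.8 and 58.6 CPM in LD3, against 0, 0 and 0.616 CPM in LD0. BGAL9, a beta-galactosidase of the cell wall, had 23.4, 20.09 and 30.9 CPM in LD3, against 0, 0 and 0.616 CPM in LD0. For both of these genes the only LD0 reads were in library C, which held 1 read of each. Their LD3 A and B values lay under the 26.9 and 28.5 CPM that 3 reads are worth in LD0 A and B. AT5G35320 had 15.6, 48.5 and 90.6 CPM in LD3, against 0, 0 and 2.47 CPM in LD0, with LD3 A under the limit of LD0 A. It was one of the 9 loci called higher by both DESeq2 and limma-voom. The other 8 were FTM1, SOC1, AT4G10270, TOC34, the lactate dehydrogenase gene LDH, the ribosomal protein gene AT3G43980, DGR2 and AT1G15370. DGR2 and AT1G15370 were named after their values were seen: DGR2, a DUF642 wall protein, had 78.0, 107 and 135 CPM in LD3, against 17.9, 9.50 and 8.63 CPM in LD0, and AT1G15370 had 179, 129.5 and 137 CPM in LD3, against 35.9, 19.0 and 19.1 CPM in LD0.

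At the lower end the smallest p belonged to AT1G68250, with 10, 47 and 863 reads in LD3, against 2127, 112 and 14462 reads in LD0. That is 78.0, 32.6 and 97.0 CPM in LD3, against 19070.0, 1064 and 8914 CPM in LD0, with a log2 fold change of -7.11 (SE 1.15) and an adjusted p of 0.205. The groups did not overlap, though LD0 B was well under LD0 A and C. LCR67, a plant defensin, had 335, 391 and 286 CPM in LD3, against 5604, 1320.2 and 6465 CPM in LD0. The nitrile specifier proteins NSP5 and NSP2, which steer glucosinolate breakdown, had log2 fold changes of -5.28 (SE 1.07) for NSP5 and -6.95 (SE 1.47) for NSP2. NSP5 was highest in LD0 B (54.6, 159 and 4.95 CPM in LD3, against 359, 3885 and 537 CPM in LD0), whereas NSP2 was highest in LD0 A (7.80, 7.62 and 0 CPM in LD3, against 609.7, 247 and 53.0 CPM in LD0). AT1G20620, the catalase gene CAT3, had 23.4, 92.1 and 32.3 CPM in LD3, against 2484, 399 and 1288 CPM in LD0 (log2 fold change -4.85, SE 1.07). GASA2, a small cysteine-rich peptide gene of the gibberellin-regulated family, had 0, 0 and 0 reads in LD3, against 16, 2 and 308 reads in LD0. Its level was therefore lower in LD3 by a log2 value of -3.77 or more in size, the bound set by 3 reads per LD3 library. BBD1, a bifunctional nuclease, had 15.6, 44.3 and 8.66 CPM in LD3, against 484, 313 and 219 CPM in LD0, and AT1G16770 had 7.80, 4.16 and 2.25 CPM in LD3, against 341, 114 and 248 CPM in LD0, each with every LD3 library under every LD0 library.

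**Figure D2:**
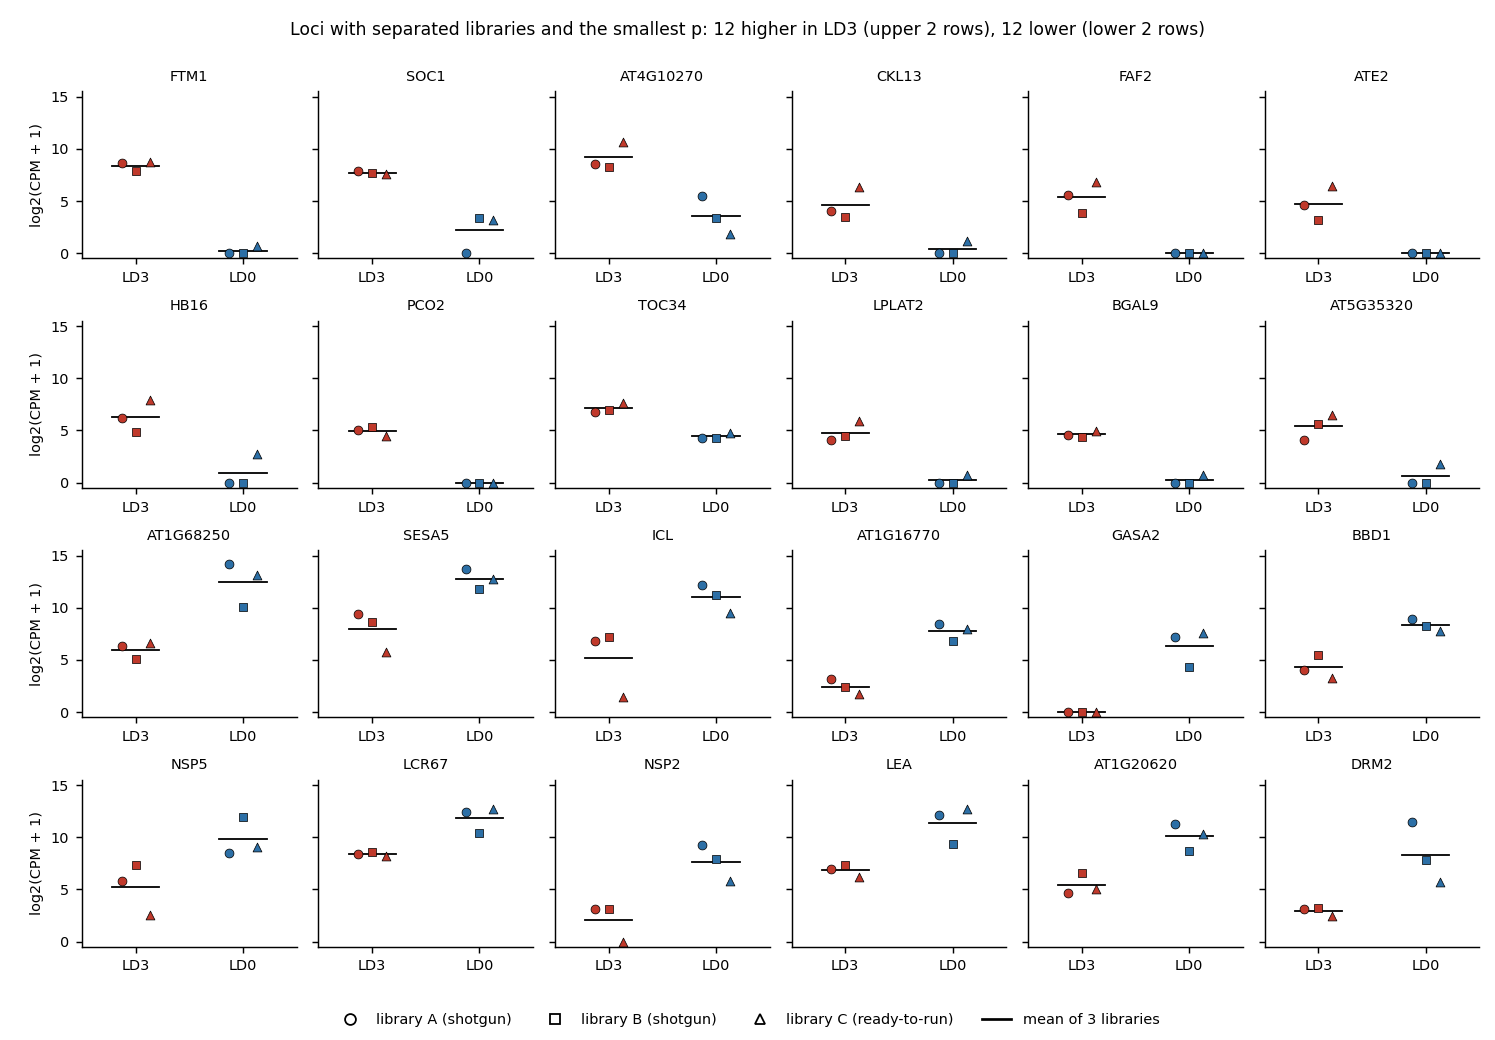
Log2(CPM + 1) in each library for the 12 loci higher and the 12 lower in LD3 with the smallest p among loci whose groups do not overlap and that hold at least 20 reads; red is LD3, blue is LD0, shapes mark libraries A, B and C and the bar is the mean of the 3 log2 values. FAF2, ATE2 and PCO2 have 0 reads in LD0 and GASA2 has 0 in LD3, and the spread within LD0 is wide for NSP5 and DRM2.

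Flowering promoters were mostly higher in LD3, with the smallest p for FTM1, described above, and then SOC1. Of 24 genes in the list, 10 were tested and 9 had a positive fold change, against 52.9% of all tested loci. At p under 0.05, 3 were higher and 0 lower, against 2.69% and 5.24% of all tested loci. The list's median was 1.01, against 0.09 for all tested loci. SOC1, the MADS-box integrator of flowering signals, had 30, 302 and 1656 reads in LD3, against 0, 1 and 13 reads in LD0. Its level was 234, 209 and 186 CPM in LD3, against 0, 9.50 and 8.01 CPM in LD0, even across the LD3 libraries and near 0 in LD0, with a log2 fold change of 4.84 (SE 0.92) and an adjusted p of 0.316. SPL9, an SBP-box factor of the age pathway, had 2, 22 and 353 reads in LD3, against 0, 0 and 2 reads in LD0, so that its LD0 level rested on 2 reads (log2 fold change 4.59, SE 1.74, p under 0.05). SPL9 had 15.6 and 15.2 CPM in LD3 A and B, each under what 3 reads are worth in LD0 A and B. SPL15, its close paralogue, overlapped between groups at 31.2, 72.0 and 776 CPM in LD3, against 53.8, 37.99 and 81.4 CPM in LD0, and only LD3 C was far above the rest. Without the ready-to-run libraries its fold change was -0.0079, against 1.55 with all libraries. The list as a whole took 0.272%, 0.141% and 0.172% of reads in LD3, above the 0.0588%, 0.0834% and 0.0451% in LD0. Exact two-sided permutation over 3 against 3 libraries gives p = 0.1 for this and every other separated share below, the smallest p this design allows. Of the 61 lists whose shares were tested, 22 reached it, and the exact p is 0.277 after Benjamini-Hochberg adjustment over the 61. FTM1, taken from this study's own libraries, is a member of this list and is no independent evidence of its direction. In bulk tissue, fewer cells of a type and less RNA per cell cannot be told apart, here and for each group below.

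Other named promoters were mixed: FUL and FLOR1 had every LD3 library above every LD0 library, while FD, FT and LFY did not. FD, the bZIP partner of FT, had 624, 276 and 204 CPM in LD3, against 197, 323 and 49.9 CPM in LD0: LD0 B was above 2 of the LD3 libraries (log2 fold change 1.11, SE 0.67, p above 0.05). FT, whose protein arrives from leaves, had 1, 2 and 249 reads in LD3, against 4, 0 and 7 reads in LD0, too few outside LD3 C for a direction; its fold change was 0.75, and -0.49 without LD0 C and -3.87 without LD3 C. FUL, a MADS-box gene of the inflorescence, was too low to be tested and was separated on few reads, with 3, 21 and 54 reads in LD3, against 0, 0 and 2 in LD0. The floral meristem genes were close to absent: LFY had 0, 0 and 45 reads in LD3, against 0, 1 and 2 in LD0, and AP1 had 0, 3 and 0 in LD3, against 0 in each LD0 library. FLOR1, which encodes a leucine-rich repeat protein, had 554, 339 and 336 CPM in LD3, against 152, 256 and 237 CPM in LD0. Its LD3 libraries were all above its LD0 libraries, with a log2 fold change of 0.84 (SE 0.68) and p above 0.05; it was named after its values were seen, because the series' title refers to such a protein.

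Among the floral repressors the directions were mixed, with 6 of 19 tested, 4 positive and 2 negative. AP2, which represses flowering and later specifies floral organs, had 195, 172 and 326 CPM in LD3, against 44.8, 114 and 107 CPM in LD0 and lay above LD0 in every LD3 library (log2 fold change 1.35, SE 0.62, p above 0.05). FLM, a MADS-box repressor, had 39.0, 36.0 and 92.7 CPM in LD3, against 8.97, 19.0 and 33.9 CPM in LD0 and was also separated upward, while SVP, its partner, overlapped at 179, 177 and 489.7 CPM in LD3, against 62.8, 142 and 339.6 CPM in LD0. TOE2, an AP2-like repressor, had 7.80, 13.2 and 0.674 CPM in LD3, against 17.9, 85.5 and 18.5 CPM in LD0. Its libraries were separated the other way, on 1, 19 and 6 reads in LD3 and 2, 9 and 30 in LD0 (log2 fold change -3.20, SE 1.31, p under 0.05). TFL1, which keeps the inflorescence meristem indeterminate, had 23.4, 9.70 and 8.77 CPM in LD3, against 0, 9.50 and 168 CPM in LD0. One library, LD0 C, set its sign: the fold change was -1.89 with it and 2.27 without it. FLC, the vernalization-sensitive repressor, was untested at 0, 5 and 6 reads in LD3 and 0, 4 and 9 in LD0.

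**Figure D3:**
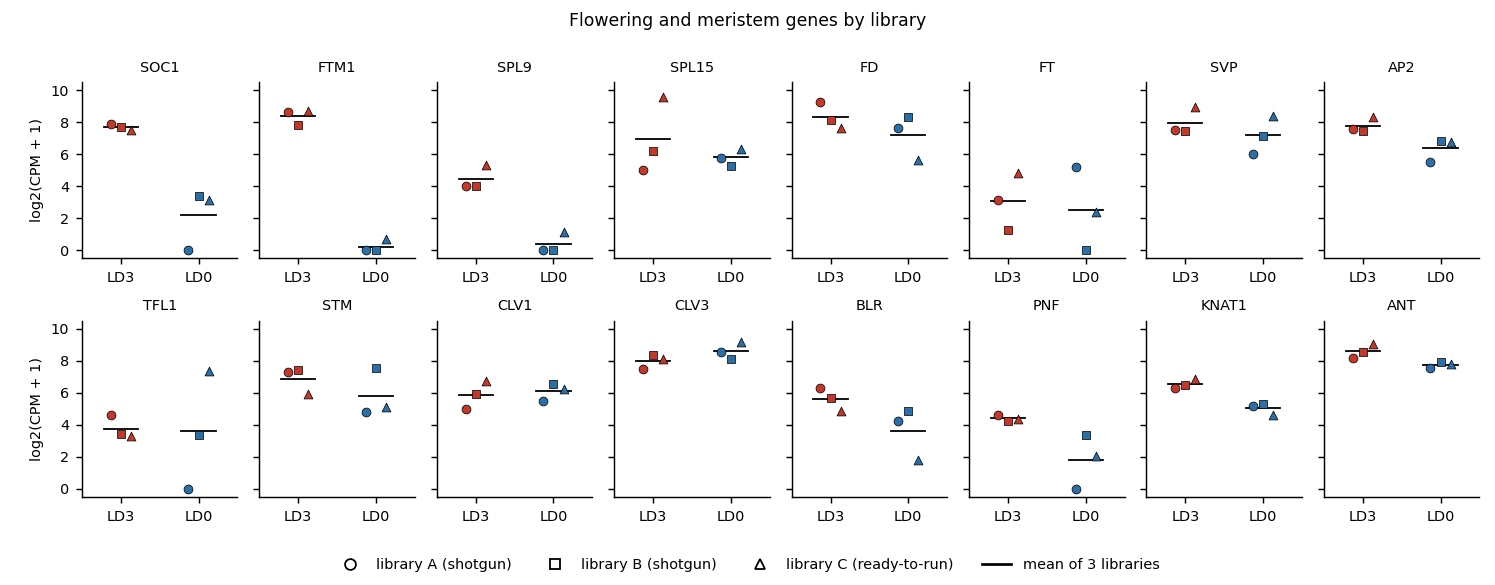
Log2(CPM + 1) in each library for 16 flowering and meristem genes, LD3 in red and LD0 in blue, with shapes for libraries A, B and C and a bar at the mean of the 3 log2 values. SOC1, FTM1, SPL9, AP2, PNF, KNAT1 and ANT have no overlap between groups, and the other panels do.

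Genes that maintain the meristem had no common direction. In the stem cell and KNOX-BELL list, 16 of 22 were tested, 9 were positive and 7 negative, 0 reached p under 0.05, and the median was 0.18, of varying sign between analyses (6 of 18 alternatives gave a negative one). STM, the homeobox gene that keeps cells undifferentiated, had 156, 171 and 60.6 CPM in LD3, against 26.9, 190.0 and 33.3 CPM in LD0, and LD0 B was the highest of the 6. CLV3, the stem cell peptide that restrains the meristem, had 179, 326 and 278 CPM in LD3, against 377, 275 and 573 CPM in LD0, with overlapping groups (log2 fold change -0.63, SE 0.57, p above 0.05), and its receptor CLV1 had 31.2, 59.6 and 105 CPM in LD3, against 44.8, 94.98 and 73.4 CPM in LD0. Their fold changes carried SE of 0.57 and 0.88, and the CLV3 difference, larger than its SE, did not reach p under 0.05. Differences larger than these SE could thus be missed. On simulated data 30.3% of loci changed by 4-fold reached p under 0.05. That rate is an average over random loci of all levels and not a rate for CLV3 or CLV1. WUS, the stem cell organiser, was untested with 0, 9 and 1 reads in LD3 and 0, 1 and 19 in LD0. KNAT1 and PNF were separated upward in LD3. For PNF this held only with the 0 reads of LD0 A taken as 0 CPM, and LD0 B held 1 read. Every LD3 value of PNF lay under the 26.9 CPM that 3 reads are worth in LD0 A. KNAT1 (BREVIPEDICELLUS), which shapes stems and pedicels, had 78.0, 90.05 and 116 CPM in LD3, against 35.9, 37.99 and 23.4 CPM in LD0, and the BELL gene PNF, which acts redundantly with BLR (PENNYWISE) in the response to flowering signals, had 23.4, 18.0 and 19.8 CPM in LD3, against 0, 9.50 and 3.08 CPM in LD0. BLR itself had 78.0, 50.6 and 28.0 CPM in LD3, against 17.9, 28.5 and 2.47 CPM in LD0 and overlapped, with LD3 C just under LD0 B. ANT, an AP2-domain growth factor of organ primordia, had 289, 383 and 533 CPM in LD3, against 188, 247 and 221 CPM in LD0 (log2 fold change 0.81, SE 0.53). The boundary list it belongs to had 3 positive and 7 negative among 10 tested, and the leaf polarity list 6 and 4 among 10.

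Other homeobox genes separated more clearly. Of 72, 29 were tested, 20 were positive, and 4 were at p under 0.05 higher and 0 lower, against 2.69% and 5.24% of all tested loci. HB16, a leucine-zipper homeobox factor, had 9, 40 and 2180 reads in LD3, against 0, 0 and 9 reads in LD0, or 70.2, 27.7 and 245 CPM in LD3, against 0, 0 and 5.55 CPM in LD0, with a log2 fold change of 5.23 (SE 1.47) and p under 0.05. HB31, a zinc-finger homeobox gene, had 93.6, 32.6 and 65.4 CPM in LD3, against 0, 19.0 and 0.616 CPM in LD0. HB32, of the same class, had 31.2, 10.4 and 67.5 CPM in LD3, against 0, 0 and 9.25 CPM in LD0. WOX13, the WUSCHEL-related gene outside the stem cell clade, had 15.6, 9.70 and 81.4 CPM in LD3, against 0, 0 and 3.70 CPM in LD0. For all 4 the LD3 libraries were above the LD0 libraries, yet LD0 A held none of their reads. For HB16, HB32 and WOX13, LD3 B lay under the 28.5 CPM that 3 reads are worth in LD0 B, which held 0 reads. The shallow libraries limit how well the separation and its size are known. The log2 fold change was 4.34 (SE 1.56) for HB31, 4.06 (SE 1.62) for HB32 and 4.17 (SE 1.53) for WOX13. The list median was 0.41 and its share of reads overlapped (0.143%, 0.122% and 0.150% in LD3, 0.107%, 0.175% and 0.0971% in LD0).

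Hormone lists differed from one another. Cytokinin genes, which promote division in the meristem, took 0.0902%, 0.0799% and 0.109% of reads in LD3, all above the 0.0441%, 0.0628% and 0.0565% in LD0. Of 15 tested members 9 were positive, with a median of 1.00. At p under 0.05, 1 was higher, against 2.69% of all tested loci. Without ARR7 the shares overlapped, at 0.0765%, 0.0708% and 0.0570% in LD3 and 0.0377%, 0.0618% and 0.0384% in LD0. CKX3, a cytokinin oxidase that degrades the hormone, had 7.80, 38.8 and 110.1 CPM in LD3, against 0, 0 and 8.01 CPM in LD0 (log2 fold change 4.75, SE 1.62, p under 0.05), and the response regulator ARR4 had 164, 147 and 108 CPM in LD3, against 53.8, 85.5 and 48.1 CPM in LD0. ARR4 was separated and CKX3 was not, its LD3 A value of 1 read lying under LD0 C. ARR7, the regulator repressed by WUS, had 109, 82.4 and 657 CPM in LD3, against 62.8, 9.50 and 245 CPM in LD0 and was carried by the C libraries in both groups. Brassinosteroid genes were separated as a share too (0.0755%, 0.0696% and 0.0635% in LD3, 0.0487%, 0.0360% and 0.0492% in LD0), although 0 of 11 tested members reached p under 0.05. Without DWF1, which encodes an enzyme of brassinosteroid synthesis, they overlapped at 0.0716%, 0.0574% and 0.0379% in LD3 and 0.0386%, 0.0278% and 0.0336% in LD0. In the gibberellin list 5 members were positive and 5 negative. As for single genes, RGL1, a DELLA repressor of gibberellin response, had 3, 41 and 309 reads in LD3, against 0, 0 and 0 reads in LD0. Its mean CPM was at least 0.60 log2 units higher in LD3, a bound that rested on the C libraries. LD3 A and B, at 23.4 and 28.4 CPM, lay under the 26.9 and 28.5 CPM that 3 reads are worth in LD0 A and B. GA20OX2, which makes gibberellin precursors, had 15.6, 20.8 and 10.2 CPM in LD3, against 0, 0 and 4.31 CPM in LD0 (log2 fold change 3.85, SE 1.72, p under 0.05). Every LD3 value of GA20OX2 lay under the 26.9 and 28.5 CPM of 3 reads in LD0 A and B. Auxin genes took nearly equal shares, 0.141%, 0.144% and 0.133% in LD3 and 0.139%, 0.146% and 0.139% in LD0, with 7 positive and 13 negative of 20; over reads outside the seed storage, oil body and LEA lists described below, LD3 was lower in every library, at 0.133% to 0.145% in LD3 and 0.151% to 0.153% in LD0. The auxin response factors ARF8 (log2 fold change 1.87, SE 0.81) and ARF6 (log2 fold change 1.57, SE 0.96) were on the positive side. ARF8 had 54.6, 125 and 221 CPM in LD3, against 8.97, 28.5 and 130.1 CPM in LD0, and ARF6 had 62.4, 54.0 and 145 CPM in LD3, against 17.9, 28.5 and 38.2 CPM in LD0; of these only ARF6 was separated.

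Genes known from low-oxygen responses differed in both directions. This list was added after values of some of its members had been seen, and it holds FTM1 and AT4G10270 described above. Of 28 genes, 16 were tested, 9 were positive and 7 negative, with 5 at p under 0.05 higher and 2 lower. Of all tested loci 2.69% were at p under 0.05 higher and 5.24% lower. In Arabidopsis the response is governed by the N-degron pathway, in which plant cysteine oxidases oxidise the tip of group VII ERF factors, an arginyl transferase tags them, and they are degraded while oxygen is present. PCO2, such an oxidase, had 4, 55 and 187 reads in LD3, against 0, 0 and 0 reads in LD0, at least 0.66 log2 units higher in LD3. The arginyl transferase gene ATE2, found among the 12 leading loci and outside this list, had 3, 12 and 753 reads in LD3, against 0, 0 and 0 reads in LD0. Its mean CPM was at least 1.02 log2 units higher in LD3, a bound that rested on LD3 C (84.7 CPM). LD3 A and B, at 23.4 and 8.31 CPM, lay under the 26.9 and 28.5 CPM that 3 reads are worth in LD0 A and B. LDH, the lactate dehydrogenase of fermentation, had 109, 118 and 78.8 CPM in LD3, against 0, 9.50 and 5.55 CPM in LD0 (log2 fold change 4.04, SE 1.19, p under 0.05). LBD41, a LOB-domain factor, had 203, 249 and 373 CPM in LD3, against 17.9, 114 and 35.8 CPM in LD0 (log2 fold change 2.53, SE 1.06, p under 0.05). These 4 were separated upward, PCO2 and ATE2 only with the 0 reads of LD0 A and B taken as 0 CPM. For PCO2, LD3 C lay under the 26.9 and 28.5 CPM that 3 reads are worth in LD0 A and B. On the lower side, AT3G10020 had 46.8, 72.0 and 115 CPM in LD3, against 4689, 541 and 828 CPM in LD0 (log2 fold change -4.29, SE 1.00, p under 0.05). AT1G19530 had 0, 2.08 and 9.89 CPM in LD3, against 260.0, 85.5 and 311 CPM in LD0 (log2 fold change -5.55, SE 1.41, p under 0.05). Both had every LD3 library under every LD0 library. ADH1, the alcohol dehydrogenase of fermentation, also lay lower, at 78.0, 97.7 and 58.7 CPM in LD3, against 117, 247 and 354 CPM in LD0, without reaching p under 0.05. The share of reads on the whole list overlapped (0.309%, 0.274% and 0.244% in LD3, 0.618%, 0.275% and 0.168% in LD0), and AT3G10020 alone made up most of the LD0 A value. Without that gene every LD3 library was above every LD0 library, at 0.303%, 0.266% and 0.234% in LD3 and 0.137%, 0.216% and 0.106% in LD0. Those shares still hold FTM1 and AT4G10270, described above as high in LD3, so their separation is no independent evidence of the list's direction. Shares without FTM1 and AT4G10270 were not taken.

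Cytosolic ribosomal protein genes were higher in LD3 by small amounts in nearly every tested member, and no other list had as many loci at p under 0.05 higher. Of 115 tested 60S genes, 109 were positive, 23 were at p under 0.05 higher and 1 lower, and 27 were separated upward and 1 downward. Of 68 tested 40S genes, 64 were positive, 12 were at p under 0.05 higher and 0 lower, and 14 were separated upward and 1 downward. Of all tested loci 2.69% were at p under 0.05 higher and 5.24% lower, and 7.55% were separated upward and 5.18% downward. The medians of the 60S and 40S lists were 0.70 and 0.58, against 0.09 for all tested loci. They stayed between 0.39 and 0.91 (60S) and between 0.33 and 0.85 (40S) under all 18 alternatives. The 60S list took 11.7%, 12.3% and 14.5% of all reads in LD3, against 6.75%, 6.92% and 6.93% in LD0. The 40S list took 6.75%, 6.97% and 6.76% in LD3, against 3.56%, 4.21% and 3.28% in LD0. Each library of LD3 was above each of LD0 in both preparations, by a ratio of means of 1.87 for 60S and 1.85 for 40S. Of the 250 loci at p under 0.05 higher, 35 (14%) were cytosolic ribosomal protein genes, which made up 183 (1.97%) of the loci tested. Reads on seed-type transcripts in LD0 (described below) lower every other share there. The shares were therefore also taken over reads outside the seed storage, oil body and LEA lists. On that basis 60S took 11.8%, 12.4% and 14.5% in LD3 and 7.44%, 7.13% and 7.61% in LD0, and 40S took 6.79%, 7.02% and 6.77% in LD3 and 3.92%, 4.34% and 3.60% in LD0.

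Single ribosomal genes show the same modest size. AT5G03850, encoding RPS28, had 983, 1273 and 2428 CPM in LD3, against 377, 750.3 and 825 CPM in LD0 (log2 fold change 1.21, SE 0.45, p under 0.05). AT5G07090, encoding RPS4, had 1061, 1334 and 2208 CPM in LD3, against 637, 712 and 873 CPM in LD0 (log2 fold change 0.99, SE 0.38, p under 0.05). Both were separated. AT5G67510, encoding RPL26, had 101, 91.4 and 235 CPM in LD3, against 26.9, 19.0 and 49.9 CPM in LD0 (log2 fold change 2.14, SE 0.73, p under 0.05) and was separated as well. AT2G43460, encoding RPL38, had the smallest p of the 60S list (log2 fold change 1.49, SE 0.43, p under 0.05), but its libraries overlapped at 803, 1311 and 5207 CPM in LD3, against 529, 456 and 1047 CPM in LD0, with both C libraries above the A and B libraries of their group. AT3G16080, encoding RPL37, had the same pattern more strongly (554, 809.8 and 7323 CPM in LD3, against 170.3, 427 and 1653 CPM in LD0). AT3G43980, encoding RPS29 and called by both DESeq2 and limma-voom, had 78.0, 128 and 514 CPM in LD3, against 0, 28.5 and 41.9 CPM in LD0 (log2 fold change 3.18, SE 0.96). Ribosomal proteins are encoded by small families of near-identical copies, among which the reads of one locus cannot be firmly assigned, so the sums over the lists are firmer than any single locus.

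Neighbouring parts of the protein machinery differed less. Of 77 tested translation factors, 44 were positive and 33 negative, and the list took 2.34%, 2.39% and 2.41% of LD3 reads against 2.12%, 1.81% and 1.84% of LD0 reads, which overlapped without AT5G60390 (1.78% in LD3 C, 1.97% in LD0 A). AT1G09640, a subunit of elongation factor 1B, had 421, 498 and 642 CPM in LD3, against 206, 199 and 262 CPM in LD0 (log2 fold change 1.22, SE 0.48, p under 0.05), whereas AT5G54940 and AT4G27130, both of the translation initiation factor SUI1 family, were lower. AT5G54940 had 39.0, 37.4 and 2.02 CPM in LD3, against 98.6, 494 and 168 CPM in LD0, and AT4G27130 had 156, 252 and 67.8 CPM in LD3, against 1739, 209 and 714 CPM in LD0. The groups of AT4G27130 overlapped, with LD3 B above LD0 B. Nucleolar ribosome biogenesis genes did not follow the ribosomal proteins: 6 of 16 were positive, with a median of -0.06, and they took 0.339%, 0.350% and 0.323% of reads in LD3 and 0.352%, 0.289% and 0.277% in LD0. Ribosomal protein genes of plastids and mitochondria had 20 of 26 positive with a median of 0.52, and 0 reached p under 0.05 or were separated. Proteasome subunits took 1.07%, 0.962% and 1.08% of LD3 reads, above the 0.781%, 0.647% and 0.845% in LD0, with 33 of 49 positive and a median of 0.24 that 2 of 18 alternatives turned negative. AT1G67250, a proteasome maturation factor, had 85.8, 109 and 339.6 CPM in LD3, against 26.9, 19.0 and 85.7 CPM in LD0 (log2 fold change 2.09, SE 0.71, p under 0.05). AT1G53780, which encodes a regulatory ATPase-like subunit, lay the other way with 0, 2.77 and 3.15 CPM in LD3, against 17.9, 57.0 and 85.7 CPM in LD0 (log2 fold change -4.35, SE 1.38, p under 0.05).

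Cell cycle genes had more positive than negative fold changes, but few members reached p under 0.05, against 2.69% of all tested loci on the higher side. DNA replication genes took 0.263%, 0.259% and 0.404% of reads in LD3, against 0.149%, 0.172% and 0.259% in LD0. The lowest LD3 value was only just above the highest LD0 value. Over reads outside the seed storage, oil body and LEA lists the groups overlapped, at 0.264%, 0.261% and 0.405% in LD3 and 0.164%, 0.177% and 0.284% in LD0, and they also overlapped without MCM7. Of 21 tested, 13 were positive, 1 was at p under 0.05 higher and the median was 0.44. MCM2, MCM5 and MCM7 are subunits of the helicase that opens replication origins. MCM7 was separated at 343, 273 and 734 CPM in LD3, against 134, 256 and 192 CPM in LD0 (log2 fold change 1.08, SE 0.58). MCM2 had 125, 139 and 667 CPM in LD3, against 35.9, 57.0 and 376 CPM in LD0 (log2 fold change 1.28, SE 0.56, p under 0.05), with LD0 C above LD3 A and B. MCM5 had 140.4, 180.1 and 333 CPM in LD3, against 44.8, 66.5 and 167 CPM in LD0, with LD0 C above LD3 A. Cyclins, cyclin-dependent kinases and mitotic genes took 0.398%, 0.382% and 0.360% in LD3, against 0.198%, 0.325% and 0.267% in LD0, with 21 of 28 positive and 0 at p under 0.05. Of these, CYCA2;3 was separated at 39.0, 23.6 and 76.8 CPM in LD3, against 8.97, 9.50 and 16.6 CPM in LD0, and the mitotic cyclin CYCB1;1 (log2 fold change 1.52, SE 0.97) and the spindle checkpoint gene MAD2 (log2 fold change 1.07, SE 0.60) overlapped. Histone genes were positive in 32 of 40 cases, with a median of 0.41, but their share overlapped (3.57%, 2.95% and 2.203% in LD3, 1.86%, 2.47% and 1.44% in LD0; exact permutation p = 0.2). The histone variant gene HTA11 (H2A.Z) had 913, 1147 and 2150.1 CPM in LD3, against 592, 703 and 641 CPM in LD0 and was separated. The one histone gene at p under 0.05 was AT1G08170, an H2B gene, which was lower at 0, 3.46 and 0 CPM in LD3, against 62.8, 0 and 532 CPM in LD0 (log2 fold change -7.62, SE 2.90). Histone genes too have near-identical copies.

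**Figure D4:**
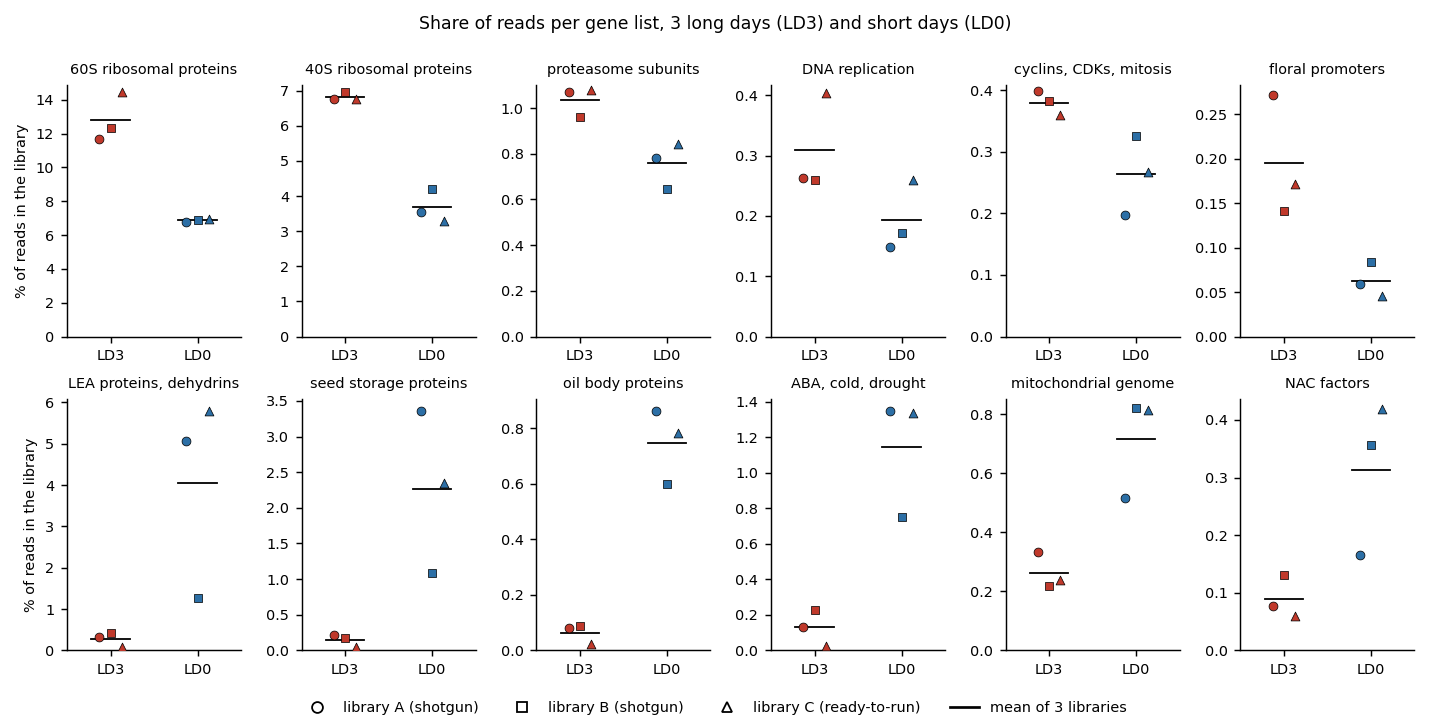
Percent of each library's reads on 12 gene lists, LD3 in red and LD0 in blue, with shapes for libraries A, B and C, a bar at the mean and axes from 0. In the upper row every LD3 library lies above every LD0 library, with the 60S share at 11.7% to 14.5% in LD3 and 6.75% to 6.93% in LD0; in the lower row every LD3 library lies below, with LEA proteins at 0.0850% to 0.418% in LD3 and 1.27% to 5.80% in LD0.

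Genes usually active in maturing seeds were lower in LD3. Of the 487 loci at p under 0.05 lower, 48 (9.86%) were in the seed storage, oil body, LEA, abscisic acid and glyoxylate lists, which together hold 86 (0.925%) of the tested loci. Of the 114 loci called lower by both DESeq2 and limma-voom, 18 (15.8%) were, and of the 250 higher loci 0 were. The glyoxylate list was added after values had been seen, so these counts are no independent evidence of direction. They also cover abscisic acid, cold, drought and fat-use genes, and so not maturing-seed genes alone. Seed storage protein genes had 9 of 9 tested members negative, with a median of -4.88. Of the 9, 8 were at p under 0.05 lower and 8 separated downward, against 5.24% and 5.18% of all tested loci. Seed storage protein genes took 0.218%, 0.174% and 0.0512% of LD3 reads, against 3.36%, 1.09% and 2.35% of LD0 reads. SESA5, an albumin precursor, had 85, 590 and 480 reads in LD3, against 1491, 384 and 10889 reads in LD0, or 663, 409 and 54.0 CPM in LD3, against 13368, 3647 and 6712 CPM in LD0, with a log2 fold change of -4.74 (SE 0.78) and an adjusted p of 0.205. The cruciferin gene CRA1 had 101, 215 and 296 CPM in LD3, against 4967, 1073 and 7098 CPM in LD0 (log2 fold change -4.41, SE 1.46, p under 0.05). A second cruciferin gene, CRU2, had 117, 91.4 and 0.450 CPM in LD3, against 1578, 541 and 1862 CPM in LD0 (log2 fold change -6.97, SE 2.34, p under 0.05). Cruciferins are the globulins of Arabidopsis seeds. PAP85, a vicilin-like storage protein, had 39.0, 219 and 237 CPM in LD3, against 4635, 446 and 9517 CPM in LD0 (log2 fold change -4.75, SE 1.20, p under 0.05). For each of these 4 genes all LD3 libraries lay below all LD0 libraries, and LD0 B was the lowest of the LD0 libraries.

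Oil body and LEA genes had the same direction. Oil body proteins coat the storage lipid of seeds. Of 14 tested, 13 were negative and 8 were at p under 0.05 lower, against 5.24% of all tested loci. The oil body list had a median of -4.53 and shares of 0.0804%, 0.0860% and 0.0230% in LD3 against 0.863%, 0.600% and 0.782% in LD0. OLEO1, the main oleosin, had 374, 202 and 7.31 CPM in LD3, against 3748, 912 and 2311 CPM in LD0 (log2 fold change -5.47, SE 1.57, p under 0.05), and the oleosin gene AT3G01570 had 39.0, 20.8 and 0.112 CPM in LD3, against 493, 399 and 1399.8 CPM in LD0 (log2 fold change -7.53, SE 2.33, p under 0.05). RD20, a caleosin also induced by drought, was highest in LD0 B, at 0, 31.9 and 0 CPM in LD3, against 117, 1709.6 and 156 CPM in LD0 (log2 fold change -7.51, SE 2.14, p under 0.05). LEA proteins and dehydrins protect cells that dry out. Of 36 tested, 34 were negative, 26 at p under 0.05 lower and 0 higher, and 24 were separated downward and 1 upward, against 5.18% and 7.55% of all tested loci. Their median was -5.30, or -5.25 with the loci at 0 reads in one group set to their bound, and they took 0.314%, 0.418% and 0.0850% of LD3 reads, against 5.06%, 1.27% and 5.80% of LD0 reads. AT2G21490, a dehydrin, had 125, 156 and 70.7 CPM in LD3, against 4492, 646 and 6545 CPM in LD0 (log2 fold change -5.24, SE 1.14, an adjusted p of 0.475). XERO1, another dehydrin, had 70.2, 67.2 and 59.0 CPM in LD3, against 2295, 513 and 4232 CPM in LD0, and the LEA gene AT3G22490 had 0, 8.31 and 3.26 CPM in LD3, against 359, 66.5 and 827 CPM in LD0. AT1G22600 had 0, 0 and 0 reads in LD3, against 25, 2 and 499 reads in LD0, lower by a log2 value of -4.42 or more in size. DESeq2 called 23 of these loci lower and limma-voom 14.

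The regulators and markers of seeds were followed beside these lists. The 9 seed markers together took 0.0647%, 0.0508% and 0.0204% of LD3 reads and 0.873%, 0.167% and 0.893% of LD0 reads, almost all of it from PAP85 and OLEO1. The regulators LEC1, FUS3, LEC2 and ABI3 were at or near 0 in both groups. LEC1 had 0 reads, and FUS3 had 0, 2 and 0 in LD3 and 0 in each LD0 library. LEC2 had 0 in each LD3 library and 0, 0 and 1 in LD0, and ABI3 had 1, 0 and 10 in LD3 and 1, 1 and 15 in LD0. WRI1, also in the list, had reads in every library, with 11, 48 and 89 in LD3 and 5, 12 and 43 in LD0. DOG1 had 0, 0 and 4 reads in LD3 and 0, 0 and 22 in LD0. HSFA9, the seed heat shock factor, had 1, 3 and 0 reads in LD3, against 8, 6 and 271 reads in LD0 (log2 fold change -7.20, SE 2.58, p under 0.05) and was the one regulator at p under 0.05. The part that any seed-derived RNA had in these differences was not tested.

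Abscisic acid and fat-use genes were lower too. The abscisic acid, cold and drought list had 11 of 14 negative, 5 at p under 0.05 lower, against 5.24% of all tested loci, and a median of -1.50. Its share, 0.131%, 0.230% and 0.0257% in LD3 against 1.35%, 0.752% and 1.33% in LD0, was mostly that of RAB18, a dehydrin which is also in the LEA list and had 772, 1683 and 112 CPM in LD3, against 12166, 4084 and 16912 CPM in LD0 (log2 fold change -4.95, SE 1.66, p under 0.05). HAI1, a phosphatase that damps abscisic acid signalling, had 0, 18.7 and 0.337 CPM in LD3, against 53.8, 351 and 27.7 CPM in LD0 (log2 fold change -4.91, SE 1.70). NCED3, which makes the hormone's precursor, had reads only in LD0 B and LD3 B (0, 1 and 0 reads in LD3, against 0, 14 and 0 reads in LD0), and its fold change of -5.06 became 0.46 without LD0 B. The glyoxylate cycle turns stored fat into sugar. Its list, added after values had been seen, had 13 of 16 negative, 3 at p under 0.05 lower and 6 separated downward. Of all tested loci 5.24% were at p under 0.05 lower and 5.18% separated downward. ICL, the isocitrate lyase that defines the cycle, had 14, 216 and 15 reads in LD3, against 533, 259 and 1141 reads in LD0. That is 109, 149.6 and 1.69 CPM in LD3, against 4779, 2459.9 and 703 CPM in LD0, with LD0 A and B highest (log2 fold change -6.51, SE 1.20, an adjusted p of 0.316). MLS, the malate synthase, had 23.4, 21.5 and 0 CPM in LD3, against 1004, 85.5 and 499 CPM in LD0 (log2 fold change -7.40, SE 2.19, p under 0.05), and the thiolase PED1 had 125, 136 and 31.8 CPM in LD3, against 394, 418 and 995 CPM in LD0 (log2 fold change -3.13, SE 1.01, p under 0.05). The list took 0.0765%, 0.0918% and 0.0576% of reads in LD3 and 0.782%, 0.493% and 0.263% in LD0. TIP3;1, a vacuolar aquaporin of seeds, had 15.6, 93.5 and 28.6 CPM in LD3, against 3192, 285 and 1238 CPM in LD0, and BETA-TIP, its relative, had 15.6, 78.3 and 0 CPM in LD3, against 663, 152 and 1018 CPM in LD0. Both were separated, in an aquaporin list that was otherwise mixed (7 positive and 8 negative of 15).

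Some genes induced in darkness, starvation or dormancy were lower in LD3. Of 17 tested, 11 were negative and 6 positive, 4 were at p under 0.05 lower and 4 separated downward, against 5.24% and 5.18% of all tested loci, and the list took 0.0392%, 0.0557% and 0.0474% of LD3 reads against 0.401%, 0.149% and 0.134% of LD0 reads. DRM2 (AT2G33830, a dormancy-associated protein and not the DNA methyltransferase of that name) had 7.80, 8.31 and 4.50 CPM in LD3, against 2717, 228 and 49.9 CPM in LD0 (log2 fold change -6.42, SE 1.41, an adjusted p of 0.475), with a wide spread in LD0. DRM1, its relative, had 0, 24.9 and 2.92 CPM in LD3, against 592, 313 and 511 CPM in LD0 (log2 fold change -6.11, SE 1.74, p under 0.05). ASN1, the asparagine synthetase induced in the dark, had 7.80, 15.9 and 0 CPM in LD3, against 98.6, 104 and 221 CPM in LD0 (log2 fold change -6.24, SE 2.25, p under 0.05), and TPS11, of the trehalose phosphate synthase family, had 0, 11.1 and 1.35 CPM in LD3, against 53.8, 37.99 and 339 CPM in LD0 (log2 fold change -5.32, SE 2.06, p under 0.05). All 4 were separated. Sugar transport and starch genes had no common direction (6 positive, 7 negative). In that list the monosaccharide transporter STP4 was lower, at 0, 2.08 and 54.2 CPM in LD3, against 44.8, 28.5 and 1035 CPM in LD0 (log2 fold change -4.31, SE 0.83, p under 0.05). Its groups overlapped, LD3 C lying above LD0 A and B. The sucrose synthase SUS3 was lower too, at 0, 5.54 and 0 CPM in LD3, against 269, 133 and 247 CPM in LD0 (log2 fold change -7.29, SE 1.97, p under 0.05). The cytosolic invertase CINV1 had 70.2, 111 and 296 CPM in LD3, against 44.8, 19.0 and 56.1 CPM in LD0, higher and separated (log2 fold change 1.84, SE 0.76, p under 0.05).

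Stress-related lists were mixed, with NAC factors and small heat shock proteins mostly lower in LD3 and WRKY factors and the ERF and DREB factors even (9 positive and 8 negative of 17, and 9 and 9 of 18). NAC factors, a plant family active in stress and ageing, had 14 of 19 negative. At p under 0.05, 4 were lower and 0 higher, against 5.24% and 2.69% of all tested loci. The NAC list took 0.0774%, 0.130% and 0.0589% of reads in LD3 against 0.166%, 0.357% and 0.418% in LD0. Without ATAF1 the shares overlapped, LD3 B (0.102%) lying above LD0 A (0.0975%). ATAF1 had 125, 255 and 10.9 CPM in LD3, against 663, 712 and 3216 CPM in LD0 (log2 fold change -4.65, SE 1.6, p under 0.05), and log2 fold changes were -5.27 (SE 1.91) for NAC032 and -3.62 (SE 1.08) for NAC089. These 3 were separated downward, while NAC019 was highest in LD0 B (31.2, 114 and 0.112 CPM in LD3, against 0, 684 and 20.3 CPM in LD0). Small heat shock proteins took 0.0108%, 0.0239% and 0.00390% in LD3 against 0.310%, 0.0443% and 0.412% in LD0, with 4 of 5 tested negative. HSP17.6A had 31.2, 81.0 and 30.2 CPM in LD3, against 1354, 237 and 2230.1 CPM in LD0 (log2 fold change -4.97, SE 1.66, p under 0.05), and HSP17.4 had 31.2, 50.6 and 0.112 CPM in LD3, against 1255, 9.50 and 3255 CPM in LD0, where LD0 B lay among the LD3 values. In the list of larger chaperones, 12 were positive and 9 negative, and the 4 at p under 0.05 were all lower. The inducible members Hsp70b (log2 fold change -4.54, SE 1.48), HSP101 (log2 fold change -3.18, SE 1.17) and HSP90.1 (log2 fold change -4.43, SE 1.64) were separated downward, and the share of the list, which also holds the constitutive HSC70-1, overlapped (0.525%, 0.656% and 0.441% in LD3, 0.507%, 0.487% and 0.423% in LD0). Polyubiquitin genes, which share repeats and therefore reads, had 4 of 13 at p under 0.05 lower, against 5.24% of all tested loci. Among the 4 were UBQ8 with 0, 0 and 6.07 CPM in LD3, against 17.9, 47.5 and 53.6 CPM in LD0 and UBQ3 with 1552, 1181 and 231 CPM in LD3, against 2340.1, 2659 and 773 CPM in LD0.

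Light-related genes gave small numbers of separated loci. GRP7, a clock-controlled RNA-binding protein that promotes flowering, had 1419.5, 1490.0 and 422 CPM in LD3, against 2484, 3818 and 2138 CPM in LD0, with every LD3 library below every LD0 library (log2 fold change -1.52, SE 0.40, p under 0.05), and both DESeq2 and limma-voom called it lower. Its paralogue GRP8 had 156, 92.8 and 8.09 CPM in LD3, against 897, 104 and 171 CPM in LD0, in which LD0 B lay within the LD3 range (log2 fold change -2.73, SE 0.95, p under 0.05). In the clock list 8 were positive and 7 negative of 15, and the time of day of each harvest is not given in the labels used here. Nuclear photosynthesis genes had 28 positive and 22 negative of 50. At p under 0.05, 4 were higher and 0 lower, against 2.69% and 5.24% of all tested loci. PSBO1, of the oxygen-evolving complex, had 257, 244 and 161 CPM in LD3, against 71.7, 85.5 and 38.8 CPM in LD0 (log2 fold change 1.81, SE 0.65, p under 0.05). PSBP-1, of the same complex, had 195, 238 and 2734 CPM in LD3, against 17.9, 37.99 and 1128 CPM in LD0 (log2 fold change 2.39, SE 0.56, p under 0.05). PSBO1 was separated and PSBP-1 was not, its C libraries lying far above the A and B libraries in both groups. PSAE-2, of photosystem I, had 101, 73.4 and 149.9 CPM in LD3, against 26.9, 28.5 and 30.2 CPM in LD0 and was separated. The share on this list overlapped at 0.759%, 0.657% and 0.643% in LD3 and 0.344%, 0.389% and 0.687% in LD0.

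Reads on organelle genomes and ribosomal RNA were lower in LD3. Mitochondrial loci had 12 of 12 tested negative, with a median of -2.73, or -2.49 with bounds. Of these, 7 were at p under 0.05 lower and 7 separated downward, against 5.24% and 5.18% of all tested loci. Mitochondrial loci took 0.334%, 0.218% and 0.237% of LD3 reads against 0.518%, 0.821% and 0.814% of LD0 reads. ATMG01390, the mitochondrial 18S ribosomal RNA, had 413, 236 and 275 CPM in LD3, against 1461, 2783 and 2125 CPM in LD0 (log2 fold change -2.76, SE 0.72, p under 0.05), and ATMG01380, the mitochondrial 5S ribosomal RNA, had 31.2, 5.54 and 9.78 CPM in LD3, against 98.6, 94.98 and 107 CPM in LD0 (log2 fold change -2.97, SE 1.11, p under 0.05). ATMG00270, encoding subunit 6 of the respiratory NADH dehydrogenase, had 0, 2.08 and 0 CPM in LD3, against 35.9, 94.98 and 4.93 CPM in LD0. Both nuclear ribosomal RNA loci together took 0.00294%, 0.00331% and 0.00672% in LD3 and 0.0267%, 0.250% and 0.124% in LD0, and the tested one, AT3G41768, had 23.4, 28.4 and 84.1 CPM in LD3, against 260.0, 712 and 1172 CPM in LD0 (log2 fold change -4.24, SE 1.16, p under 0.05). Plastid loci were negative in 14 of 19 cases with a share that overlapped (0.0990%, 0.0732% and 0.0280% in LD3, 0.202%, 0.138% and 0.0491% in LD0). The part that RNA selection and amplification had in these differences was not tested.

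Pollen markers and pectin genes were mostly negative, with shares that overlapped between groups. Of 9 tested pollen markers, 0 were positive and 4 were at p under 0.05 lower, against 5.24% of all tested loci, with a median of -3.69 that kept its sign under all 18 alternatives and 1 separated downward. The 11 pollen markers took 0.00882%, 0.0883% and 0.0112% of reads in LD3 and 0.00184%, 0.784% and 0.135% in LD0 (exact permutation p = 0.4). LD0 B and C were above every LD3 library, LD0 B most of all, and LD0 A was below them. Of the markers, DUO1 had 0 reads and AGL104 had 0 in every LD3 library and 0, 0 and 4 in LD0. Pectin methylesterases and their inhibitors, wall enzymes of which many act in pollen tubes, took 0.0471%, 0.126% and 0.0569% in LD3 and 0.0211%, 0.924% and 0.260% in LD0. In that list 19 of 22 tested were negative and 6 were at p under 0.05 lower, but only 1 was separated. VGDH1, a pollen pectin methylesterase, had 0, 59 and 34 reads in LD3, against 0, 48 and 558 reads in LD0, and the pollen arabinogalactan protein AGP6 had 3, 51 and 0 reads in LD3, against 0, 38 and 249 reads in LD0. The pollen regulator MYB101 had 0, 7 and 0 reads in LD3, against 1, 5 and 140 reads in LD0, and its separation rested on few reads outside LD0 C.

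Grouping loci by their RefSeq product names, with no list chosen by hand, gave 133 families with at least 8 tested members. The lowest medians were those of the LEA family (-5.78 over 10 loci, or -4.99 with bounds), the RmlC-like cupins to which seed storage globulins belong (-4.41 over 9), RALF-like peptides (-3.35 over 8) and pectin lyase-like proteins (-2.48 over 18). The highest were GATA transcription factors (1.29 over 8, of which 0 reached p under 0.05), zinc-binding ribosomal proteins (1.07 over 8, all positive and 3 at p under 0.05 higher), DNase I-like proteins (1.05 over 8) and response regulators (1.00 over 9). RALF-like and pectin lyase-like loci had 1 separated locus each on the lower side, whereas the LEA family had 6 of 10. Of all tested loci 5.18% were separated downward and 2.69% were at p under 0.05 higher.

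**Figure D5:**
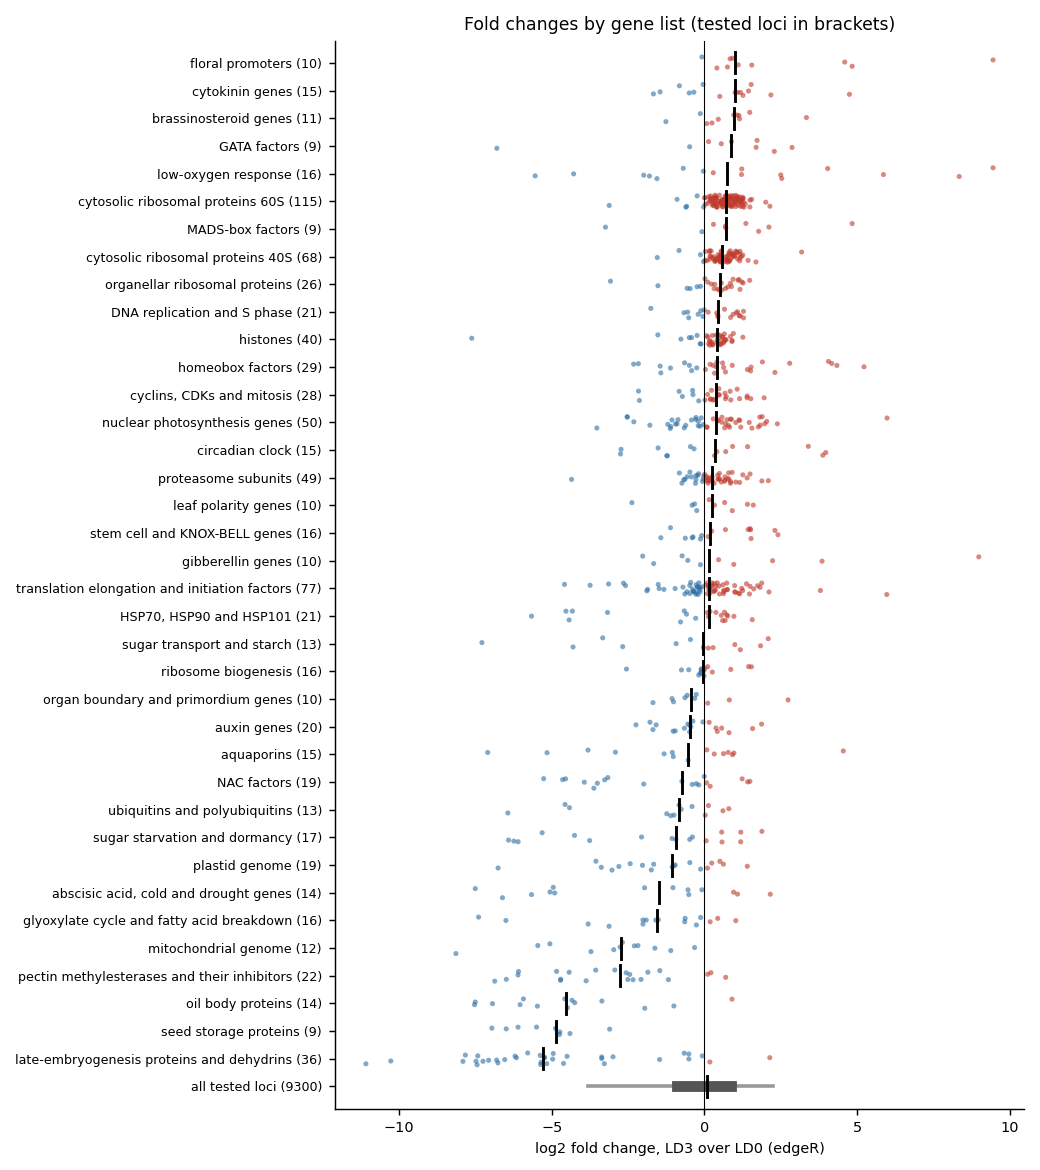
Log2 fold changes (LD3 over LD0, edgeR) of the tested loci of each list with at least 9 of them; a point is a locus, red above 0 and blue below, and the black bar is the list's median. The lowest line gives all 9300 tested loci as their 25th to 75th percentile (thick) and 5th to 95th percentile (thin); ribosomal proteins form tight clusters just above 0 with medians of 0.58 and 0.70, and LEA, seed storage and oil body loci spread far below it with medians of -5.30, -4.88 and -4.53.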

How the data were processed

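The deposited table holds read counts per locus, made by the authors with BLASTN 2.2.21 for 7 columns and 2.2.13 for 9 per the file headers, together with log2 fold changes and p-values that the authors computed per contrast, with edgeR per the submitters' processing notes. Both columns of LD0 C were made with 2.2.21, whereas LD3 C summed a column of each version. With a single column per library, LD3 C was from 2.2.13 and LD0 C from 2.2.21. The part that BLASTN version had in the results was not tested. The sources used here do not give the genome build. The counts, deposited by the authors with 49.0% of cells empty (read as 0), were summed over the columns of each library; 23073 of 23338 loci matched RefSeq TAIR10.1, used for names only. Counts of all 9 libraries were fitted in edgeR 4.0.16 (R 4.3.3) with TMM factors, terms for group and library preparation, and a minimum count of 10, leaving 9300 loci, 5 residual degrees of freedom and a biological coefficient of variation of 0.898. P-values were Benjamini-Hochberg adjusted at 0.05. On simulated data 12.4% of loci changed by 16-fold and 0.2% of those changed by 4-fold were called, and 77.8% and 30.3% reached p under 0.05, as did 3.75% of unchanged loci. Totals ran from 97153 to 11145220 reads per library. Alternatives were DESeq2 1.42.0, limma-voom 3.58.1, other factors and filters, thinned libraries, a single column per library and leaving out libraries.

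Deviations from group means correlated at 0.106 (A), 0.178 (B) and 0.220 (C) between the same letters, and at -0.159 to 0.0402 between different letters. The labels do not say whether the letters pair plants, and libraries of one letter also share their preparation. The main test had no term for the letter. With the replicate block, 2 loci were called.

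Loci named are the 12 higher and 12 lower with the smallest p among those with separated libraries and at least 20 reads, up to 4 of smallest p per list, and a fixed set of flowering and meristem genes. The comparison, lists and rules were chosen with earlier results of these data known; the low-oxygen and glyoxylate lists, and the fits without LD3 C, were added after seeing values. A RefSeq family needed at least 8 tested loci. Shares were compared by exact two-sided permutation.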

Additional observations from a re-analysis of the deposited data

How the results depend on the processing

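The count of loci at an adjusted p under 0.05, 0 in edgeR, was 296 with DESeq2, 508 with limma-voom, 367 with no filter on low counts, 2 with the replicate block and 1 with upper-quartile factors (FTM1), and 0 to 1 on leaving out a library (AT1G68250 without LD0 B); without LD3 C, DESeq2 called 24 and limma-voom 0. The block changed no other call described. Loci at p under 0.05 higher in LD3, 250, were 137 with 1 read column per library, 131 with RLE factors, 1278 with limma-voom, 99 at a minimum count of 30, 48 with only A and B, 45 with thinned libraries, and 106 to 334 on leaving out a library (106 without LD3 B, 135 without LD0 C, 150 without LD3 C). Those lower, 487, were 914 with DESeq2, 1280 with limma-voom, 1564 with no filter, 159 with only A and B, 211 with thinned libraries, and 225 to 762 on leaving out a library (225 without LD0 C, 226 without LD3 C, 762 without LD0 A). The cause of these shifts was not tested, but thinned and A-and-B fits tested only 2026 and 2850 loci.

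Of 132 named loci, 5 took the other sign under some of 18 alternatives. CLV1 (-0.09) was 0.23 with limma-voom, 0.078 with upper-quartile factors and -0.92 to 0.34 on leaving out a library; FT (0.75) was -3.87 to 2.08, NCED3 (-5.06) was -6.35 to 0.46 and TFL1 (-1.89) was -3.28 to 2.27 on leaving out a library; SPL15 (1.55) was -0.0079 with only A and B. RLE and upper-quartile factors moved the median of all loci from 0.09 to -0.18 and 0.30, and the share of positive loci from 52.9% to 43.67% and 59.01%. Of 42 list medians, 19 took the other sign somewhere; the ribosomal, seed storage, oil body, LEA, mitochondrial and floral promoter medians did not. Depth limits every statement on low loci: 3 reads in LD0 A or B are 26.9 or 28.5 CPM.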

Other observations

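Other families had smaller or mixed differences. Tubulin genes had 8 positive and 8 negative of 16 tested, with a median of 0.01. Leucine-rich repeat kinases took 0.206%, 0.209% and 0.196% of reads in LD3, all above the 0.138%, 0.184% and 0.114% in LD0, and 26 of 37 tested were positive, but without AT5G43020 LD3 C, at 0.173%, was below LD0 B, at 0.180%. Glutathione S-transferases had 12 of 15 negative with a median of -1.16, and 0 reached p under 0.05 in edgeR in either direction, with 0 called by DESeq2 and 0 by limma-voom. Genes of the microRNA pathway took 0.107%, 0.111% and 0.218% in LD3 and 0.0993%, 0.106% and 0.111% in LD0, and the LD3 C value came mostly from AGO1, without which the shares were 0.0882%, 0.0839% and 0.0862% in LD3 and 0.0809%, 0.0751% and 0.0645% in LD0.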
